A study of Arabidopsis thaliana with 12 samples.

Results

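The genes described here take part in nitrate assimilation and in the transcriptional response to nitrate in *Arabidopsis thaliana*. The list held 10 loci, and each was represented by the probe set that the annotation of the array, or else the study's table of called genes, gives to it. Of these 10 loci, 5 had a probe set by this rule, among 13779 loci that could be named in all: *NIA2* (AT1G37130), *NIR1* (AT2G15620), *UPM1* (AT5G40850), *LBD37* (AT5G67420) and AT1G68670. *NIA1* (AT1G77760), *NRT1.1* (AT1G12110), *G6PD3* (AT1G24280), *LBD38* (AT3G49940) and *LBD39* (AT4G37540) were not analysed here. AT1G68670 was named by the annotation of the array, though it is in the table of called genes as well. The other 4 genes were named only through the table of called genes, so each of them had to change in at least 1 comparison of these arrays, and how many of them changed is not independent evidence. All loci of the list were chosen with earlier results of these data known, so the change of AT1G68670 is not independent evidence either.

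RNA from siliques was hybridized to 12 Affymetrix ATH1 arrays, in 4 groups of 3 biological replicates: AtHb1 hypoxia, AtHb1 control, WT hypoxia and WT control. AtHb1 plants, of the single transgenic line L1-1 in the Col-0 background, carried the endogenous class-1 hemoglobin gene under the seed-specific LeB4 promoter, and WT plants were Col-0. All siliques were 11 to 12 days past pollination, on whole plants 45 days after germination that stood for 1 h in darkness, under 10.5% oxygen for hypoxia and under 21% oxygen for control. Each sample pooled many siliques, which hold seeds and silique wall, so that fewer cells of a type and less RNA per cell cannot be told apart, and a promoter active in seeds does not act in all of the RNA measured.

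Plants reduce nitrate in 2 steps: nitrate reductase forms nitrite in the cytosol, and nitrite reductase, which carries siroheme, turns nitrite into ammonium in plastids with electrons from ferredoxin. Genes for both enzymes, for siroheme synthesis and for several transcriptional repressors are induced by nitrate, and the repressors limit the response. Nitrate reductase can also reduce nitrite to nitric oxide when oxygen is low, and class-1 hemoglobins scavenge nitric oxide.

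The values are RMA log2 signals, normalized by the authors across arrays, so a difference of 1 is a 2-fold change, and levels are compared within a probe set only. Calls required an adjusted p under 0.05 in limma together with a change of more than 2-fold. The label check held in direction: the *AtHb1* probe set (AT2G16060) read 10.65, 10.38 and 11.12 in AtHb1 hypoxia, 10.48, 12.06 and 11.93 in AtHb1 control, 9.06, 9.07 and 9.14 in WT hypoxia, and 6.14, 5.99 and 5.88 in WT control. AtHb1 control replicate 1 thus stood below its 2 partners. The arrays agreed within groups with correlations of 0.9932 to 0.9983 across probe sets, and array medians lay between 7.45 and 7.61. The 3' to 5' signal of the actin, GAPDH and ubiquitin control probe sets, a measure of RNA integrity, was 2.34 to 2.50 in AtHb1 hypoxia, 2.13 to 2.27 in AtHb1 control, 1.70 to 1.85 in WT hypoxia and 1.62 to 1.78 in WT control, so it separated the genotypes without overlap. Of the marker lists, all 6 genes of late seed maturation had a probe set, with mean log2 signals of 8.04 to 9.04 in AtHb1 hypoxia, 8.66 to 10.37 in AtHb1 control, 8.97 to 9.18 in WT hypoxia and 6.82 to 7.95 in WT control. *BAN*, the 1 measured of 5 seed coat genes, read 11.24 to 11.45 in AtHb1 hypoxia, 10.98 to 11.34 in AtHb1 control, 12.37 to 12.47 in WT hypoxia and 12.06 to 12.10 in WT control. *RCA*, the 1 measured of 7 genes of green tissue, read 12.50 to 12.67 in AtHb1 hypoxia, 12.55 to 12.81 in AtHb1 control, 13.12 to 13.21 in WT hypoxia and 12.96 to 13.19 in WT control. The 2 measured of 4 pollen genes had weak mean log2 signals, highest in WT control. These were 4.59 to 4.74 in AtHb1 hypoxia, 4.79 to 4.86 in AtHb1 control, 4.79 to 4.92 in WT hypoxia and 5.19 to 5.43 in WT control. The seed storage and root lists had no named probe set.

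*NIA2* encodes the nitrate reductase that provides most of the activity in *Arabidopsis* leaves. Its log2 signal was 8.85, 8.75 and 8.54 in AtHb1 hypoxia, 8.37, 9.37 and 9.11 in AtHb1 control, 11.42, 11.47 and 11.59 in WT hypoxia, and 9.94, 9.74 and 10.44 in WT control. All 6 AtHb1 arrays lay below all 6 WT arrays, and the 3 WT hypoxia arrays lay highest. The order of the group means was WT hypoxia (11.49 ± 0.09), WT control (10.04 ± 0.36), AtHb1 control (8.95 ± 0.52) and AtHb1 hypoxia (8.72 ± 0.16; SD, n = 3 each), and only the last neighbours in this order overlapped.

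*NIR1*, the gene for nitrite reductase, read 7.67, 7.51 and 7.52 in AtHb1 hypoxia, 7.44, 7.21 and 7.37 in AtHb1 control, 10.61, 10.71 and 10.70 in WT hypoxia, and 8.34, 8.50 and 8.79 in WT control. The 4 groups did not overlap at all, with means of 10.68 ± 0.05 in WT hypoxia, 8.54 ± 0.22 in WT control, 7.57 ± 0.09 in AtHb1 hypoxia and 7.34 ± 0.12 in AtHb1 control (SD, n = 3 each). The gap between the 2 AtHb1 groups, 0.23, was the smallest of this order.

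*UPM1* encodes the uroporphyrinogen III methyltransferase that leads into siroheme synthesis. It read 8.51, 8.70 and 8.44 in AtHb1 hypoxia, 8.19, 8.09 and 8.37 in AtHb1 control, 10.16, 10.03 and 10.23 in WT hypoxia, and 8.68, 8.62 and 8.79 in WT control. WT hypoxia stood alone at 10.14 ± 0.10, WT control (8.70 ± 0.09) and AtHb1 hypoxia (8.55 ± 0.13) overlapped, and AtHb1 control was lowest at 8.22 ± 0.14 (SD, n = 3 each).

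The remaining genes encode transcription factors. *LBD37* belongs to the class II LOB-domain proteins, known as nitrate-inducible repressors of anthocyanin synthesis and of nitrogen-responsive genes. Its signal was 7.58, 7.06 and 7.39 in AtHb1 hypoxia, 6.96, 6.96 and 7.14 in AtHb1 control, 8.88, 8.95 and 8.76 in WT hypoxia, and 7.02, 6.54 and 7.63 in WT control. The 3 WT hypoxia arrays were above the other 9, whose groups overlapped between neighbours in the order AtHb1 hypoxia (7.34 ± 0.26), WT control (7.07 ± 0.55) and AtHb1 control (7.02 ± 0.10; SD, n = 3 each). WT control replicate 3 was the highest of its group for *NIA2*, *NIR1*, *UPM1* and *LBD37*, and the same array had the lowest late seed maturation level of all 12, 6.82. The part of that level in these readings was not tested.

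AT1G68670, also known as *HHO2* or *NIGT1.2*, encodes a GARP-family repressor that nitrate induces. It read 7.46, 7.84 and 7.76 in AtHb1 hypoxia, 6.97, 7.49 and 7.31 in AtHb1 control, 8.76, 8.71 and 8.56 in WT hypoxia, and 6.42, 6.21 and 6.33 in WT control. Here the 3 WT control arrays were the lowest of all 12, whereas for *NIA2*, *NIR1* and *UPM1* the lowest arrays were from AtHb1 plants. The means were 8.68 ± 0.11 in WT hypoxia, 7.69 ± 0.20 in AtHb1 hypoxia, 7.26 ± 0.26 in AtHb1 control and 6.32 ± 0.11 in WT control (SD, n = 3 each), and only the 2 AtHb1 groups overlapped.

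**Figure D1:**
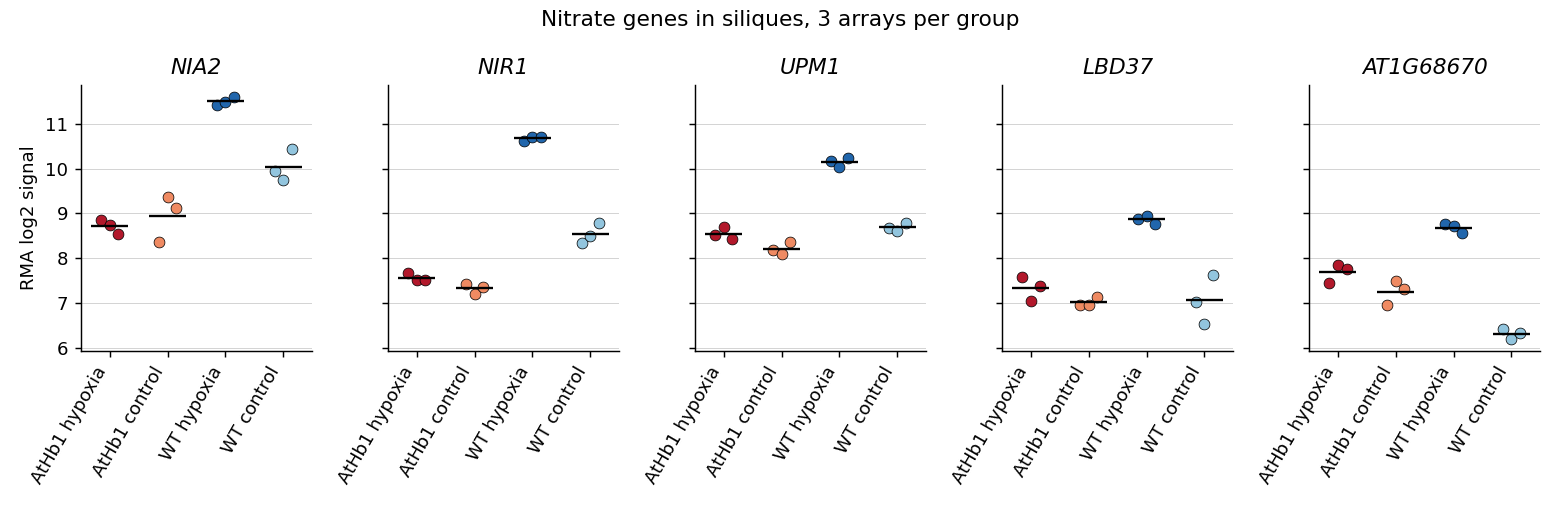
RMA log2 signal of the 5 nitrate genes (1 panel each) in each array, by group; points are arrays and lines are group means. WT hypoxia is the highest group in every panel, and WT control is the lowest only for AT1G68670, at 6.21 to 6.42.

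The first question was what a decrease in oxygen does in WT. All 5 genes were called higher in WT hypoxia than in WT control, where 1.53% of all 22746 tested probe sets were called higher. At an adjusted p under 0.05 alone the count was also 5, against 8.70% of probe sets. Within the 1010 probe sets of the study's table, from which 4 of the genes were named, 34.1% were called higher. AT1G68670, which is in that table but was named without it, rose 5.13-fold (log2 fold change 2.36, standard error 0.13, adjusted p = 8.78e-09, limma) and stood at rank 40 among the 22746 probe sets by size. *NIR1* rose 4.39-fold (log2 fold change 2.13, standard error 0.10, adjusted p = 3.10e-09). *LBD37* rose 3.48-fold (adjusted p = 1.58e-05), *NIA2* 2.74-fold (adjusted p = 2.02e-04) and *UPM1* 2.71-fold (adjusted p = 6.24e-08). The median log2 fold change of the 5 genes was 1.80, and that of all probe sets was -0.03. Markers moved in the same comparison: the 6 late seed maturation genes had mean log2 signals of 8.97 to 9.18 in WT hypoxia and 6.82 to 7.95 in WT control, and *BAN* averaged 12.43 in WT hypoxia and 12.08 in WT control, without overlap. Their part in the result was not tested.

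In AtHb1 siliques the same treatment moved these genes little. None of the 5 was called in either direction, where 0.673% of probe sets were called higher. At an adjusted p under 0.05 alone 2 of the 5 were higher, *UPM1* by 0.33 on the log2 scale (95% interval 0.13 to 0.53, adjusted p = 0.0211) and AT1G68670 by 0.43 (0.16 to 0.70, adjusted p = 0.0254), against 12.6% of all probe sets. AT1G68670 overlapped between the 2 groups, and *UPM1* did not. With single arrays left out the adjusted p reached 0.0887 for *UPM1* and 0.115 for AT1G68670, so neither passed under every omission. The 3' to 5' signal also separated AtHb1 hypoxia (2.34 to 2.50) from AtHb1 control (2.13 to 2.27), and with it as a covariate neither passed (adjusted p = 0.213 for *UPM1* and 0.505 for AT1G68670). The difference was 0.23 for *NIR1* (95% interval 0.01 to 0.45, adjusted p = 0.122), 0.32 for *LBD37* (-0.10 to 0.75, adjusted p = 0.262) and -0.24 for *NIA2* (-0.68 to 0.21, adjusted p = 0.447), none of which passed. Leaving out AtHb1 control replicate 1 gave -0.52 for *NIA2* and 0.29 for AT1G68670. The median of the 5 genes was 0.32, and that of all probe sets was 0.00.

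The AtHb1 and WT responses come from different arrays and are set beside each other here. Of the 348 probe sets called higher after hypoxia in WT, 102 (29.3%) were also called higher in AtHb1, 222 were higher at an adjusted p under 0.05 alone, and 78 had a negative log2 fold change. The median change of these 348 was 0.58 in AtHb1 and 1.41 in WT. All 348, with the 5 nitrate genes among them, were picked by their change in WT. A smaller median in AtHb1 was thus favoured in advance and is not evidence of a weaker response. The 5 nitrate genes all lay below that AtHb1 median: 58 of the 348 had a lower AtHb1 change than *NIA2*, 101 a lower one than *NIR1*, 117 than *LBD37*, 119 than *UPM1* and 143 than AT1G68670.

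**Figure D2:**
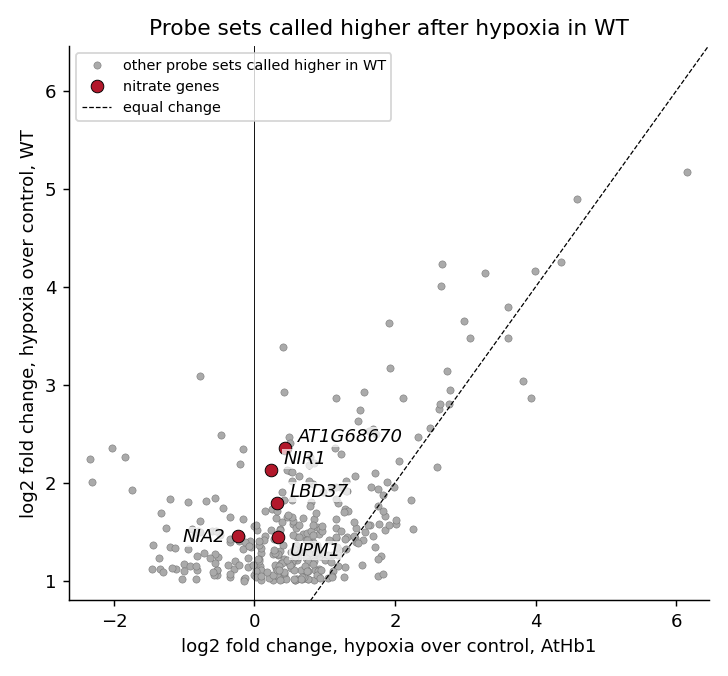
The 348 probe sets called higher after hypoxia in WT, by their log2 fold change in AtHb1 (horizontal) and in WT (vertical); the dashed line marks equal change. The 5 nitrate genes, in red, lie between -0.24 and 0.43 in AtHb1 and between 1.44 and 2.36 in WT.

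The interaction tested whether the responses of the genotypes differed. All 5 genes had a called negative interaction, meaning a smaller response in AtHb1 than in WT, where 1.51% of probe sets were called lower. The count at an adjusted p under 0.05 alone was 5 as well, against 5.30% of all probe sets, and 25% of the study's table was called lower. The log2 difference of responses was -1.93 for AT1G68670 (standard error 0.18, adjusted p = 4.51e-05, limma) and -1.90 for *NIR1* (standard error 0.15, adjusted p = 1.09e-05), the fifth smallest p of all 22746 probe sets. It was -1.69 for *NIA2* (adjusted p = 0.00255), -1.48 for *LBD37* (adjusted p = 0.00414) and -1.11 for *UPM1* (adjusted p = 1.90e-04). These differences shared arrays with the 2 responses above and are not further evidence for them. Late seed maturation genes also responded unlike between the genotypes. Their mean was 9.04 in WT hypoxia and 7.55 in WT control, but 8.40 in AtHb1 hypoxia and 9.76 in AtHb1 control. The part of these markers in the AtHb1 response and in the interaction was not tested.

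Set against WT under hypoxia, the enzymes and the cofactor gene were far lower in AtHb1. *NIR1* was 8.62-fold lower (log2 fold change -3.11, standard error 0.10, adjusted p = 5.56e-10, limma), with the third lowest fold change and the smallest p among 22746 probe sets. *NIA2* was 6.86-fold lower (log2 fold change -2.78, standard error 0.21, adjusted p = 1.05e-06), the fifth lowest fold change. *UPM1* was 3.01-fold lower (adjusted p = 1.29e-07) and *LBD37* 2.87-fold lower (adjusted p = 5.02e-05). AT1G68670 was lower by 0.99 on the log2 scale (log2 fold change -0.99, adjusted p = 4.03e-05), just inside the 2-fold limit, and so was not called. It passed the limit without AtHb1 hypoxia replicate 2 (-1.07), without AtHb1 hypoxia replicate 3 (-1.03) and without WT hypoxia replicate 3 (-1.05). Thus 4 of 5 genes were called lower, where 0.950% of probe sets were, and 19.8% of the study's table. At an adjusted p under 0.05 alone all 5 were lower, against 18.3% of probe sets. In each of the 5 genes the 3 AtHb1 hypoxia arrays lay below the 3 WT hypoxia arrays, but the share of all probe sets that separate so was not counted.

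At normal oxygen the genes did not move together. *NIR1* was 2.30-fold lower in AtHb1 than in WT (log2 fold change -1.20, standard error 0.10, adjusted p = 1.90e-06, limma) and *NIA2* was 2.13-fold lower (log2 fold change -1.09, standard error 0.21, adjusted p = 0.00107), so that 2 of 5 genes were called lower, against 0.972% of probe sets and 20.4% of the study's table. *UPM1* was lower by less than the 2-fold limit (log2 fold change -0.48, adjusted p = 0.00108). *LBD37* had a log2 fold change of -0.05 (95% interval -0.47 to 0.38, adjusted p = 0.89). AT1G68670 was higher in AtHb1 instead, by 0.94 on the log2 scale (standard error 0.13, adjusted p = 6.85e-05), just inside the 2-fold limit. At an adjusted p under 0.05 alone 3 genes were lower and 1 was higher, where 15.7% of probe sets were lower and 17.5% higher. The *NIA2* call rested on the 2-fold limit: its log2 fold change was -0.80 without AtHb1 control replicate 1 (adjusted p = 0.00265) and -0.89 without WT control replicate 3 (adjusted p = 0.0054). Without AtHb1 control replicate 1, AT1G68670 reached 1.08 and was called higher.

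Markers moved with both genotype comparisons, but not all in 1 direction. At control the 6 late seed maturation genes averaged 9.76 in AtHb1 and 7.55 in WT, without overlap between the arrays. Under hypoxia they averaged 8.40 in AtHb1 and 9.04 in WT, and the arrays overlapped. The genes behind that average went different ways. *EM1* averaged 6.30 in AtHb1 and 8.39 in WT, and *LEA76* 9.32 and 11.52. *RAB18* (10.43 and 10.66) and *EM6* (5.38 and 5.45) were slightly lower in AtHb1, whereas *LEA4-5* (9.93 and 9.52) and *ECP63* (9.08 and 8.71) were higher. *BAN* averaged 11.36 in AtHb1 and 12.43 in WT under hypoxia, and 11.18 in AtHb1 and 12.08 in WT at control. *RCA* averaged 12.61 in AtHb1 and 13.15 in WT under hypoxia, and 12.70 in AtHb1 and 13.06 in WT at control. Neither *BAN* nor *RCA* overlapped between the genotypes. The part of all these markers in the nitrate gene differences was not tested. The 3' to 5' signal separated the genotypes in the same way. With that signal as a covariate no gene was called between the genotypes: under hypoxia *NIR1* then had a log2 fold change of -2.82 (adjusted p = 0.0977) and *NIA2* one of -3.07 (adjusted p = 0.41). *UPM1* had -1.45 (adjusted p = 0.41) and *LBD37* -0.33 (adjusted p = 0.933). At control *NIR1* had -0.98 (adjusted p = 0.238) and *NIA2* -1.31 (adjusted p = 0.447). AT1G68670 then passed in neither comparison, with 0.63 at control (adjusted p = 0.548) and -1.40 under hypoxia (adjusted p = 0.497). The 3' to 5' signal and the genotype overlap in no array, and their parts cannot be told apart. The WT hypoxia response and the interaction kept all 5 calls in that fit, with adjusted p from 2.80e-08 for *NIR1* to 9.46e-04 for *NIA2* in WT, and from 1.78e-04 for *NIR1* to 0.0393 for *LBD37* in the interaction.

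**Figure D3:**
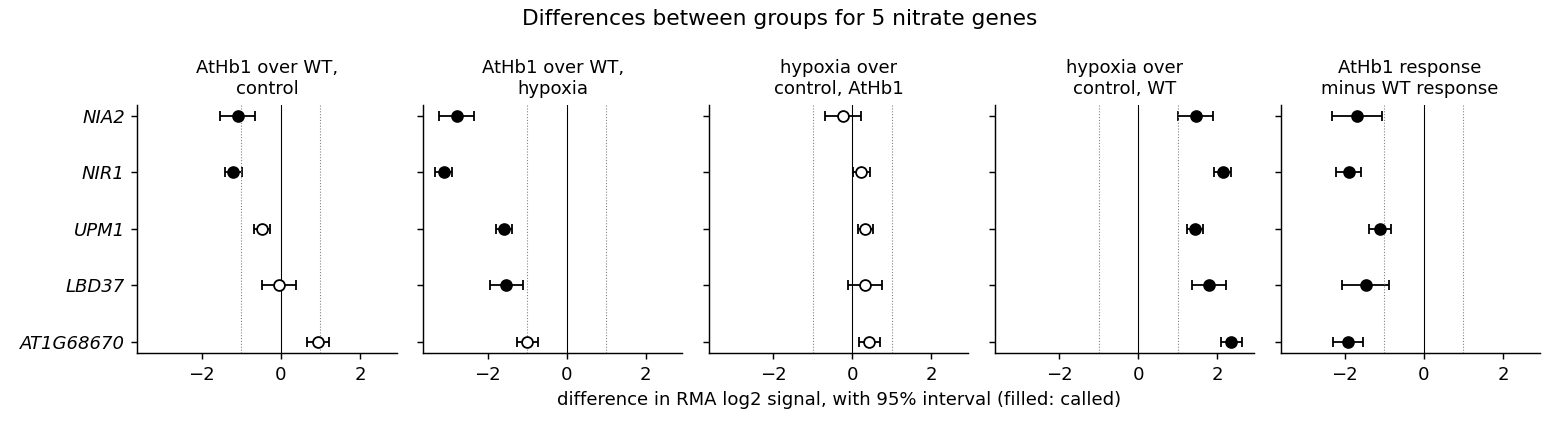
Differences in RMA log2 signal for the 5 nitrate genes in each comparison, with 95% intervals from limma; filled points were called (adjusted p under 0.05 and over 2-fold), and dotted lines mark the 2-fold limit. Every gene is filled in the WT response and in the interaction, and no gene is filled in the AtHb1 response.

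The profile of *NIR1* over the 12 arrays was then set against all named probe sets, by the root-mean-square difference after each was centred on its own mean. The nearest of 13928 was *CA1* (AT3G01500), a chloroplast carbonic anhydrase, at 0.40 on the log2 scale, and the second was *NIA2* at 0.42, where the median over all probe sets was 1.33. *XTH4* (AT2G06850), a xyloglucan endotransglucosylase/hydrolase, followed at 0.55, the aquaporin *TIP2* (AT3G26520) at 0.58, and AT2G21210, a small auxin upregulated RNA, also at 0.58. *CA1* had log2 fold changes of -1.40 for AtHb1 over WT at control, -2.20 under hypoxia, 1.18 for hypoxia over control in WT and 0.39 in AtHb1. It was picked for its likeness to *NIR1*, so changes like those of *NIR1* follow from the choice. *UPM1* stood at rank 10 from *NIR1* among all probe sets, *LBD37* at rank 18 and AT1G68670 at rank 575.

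AT1G68670 had other neighbours. The nearest were AT1G33590 at 0.27, AT5G19240 at 0.27, AT4G36500 at 0.29, AT1G03610 at 0.31 and *EXL2* (AT5G64260), an EXORDIUM-like gene, at 0.33, where the median over all probe sets was 0.89. All 5 were higher in AtHb1 than in WT at control, by log2 fold changes of 0.35 to 1.55, and rose with hypoxia in WT by 1.64 to 2.92. In AtHb1 their log2 fold changes with hypoxia were 0.42 to 0.83. These 5 were picked for profiles like that of AT1G68670, so similar changes follow from the choice. *LBD37* stood at rank 139 from AT1G68670, *UPM1* at rank 350, and *NIA2* and *NIR1* at ranks 22005 and 22250.

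**Figure D4:**
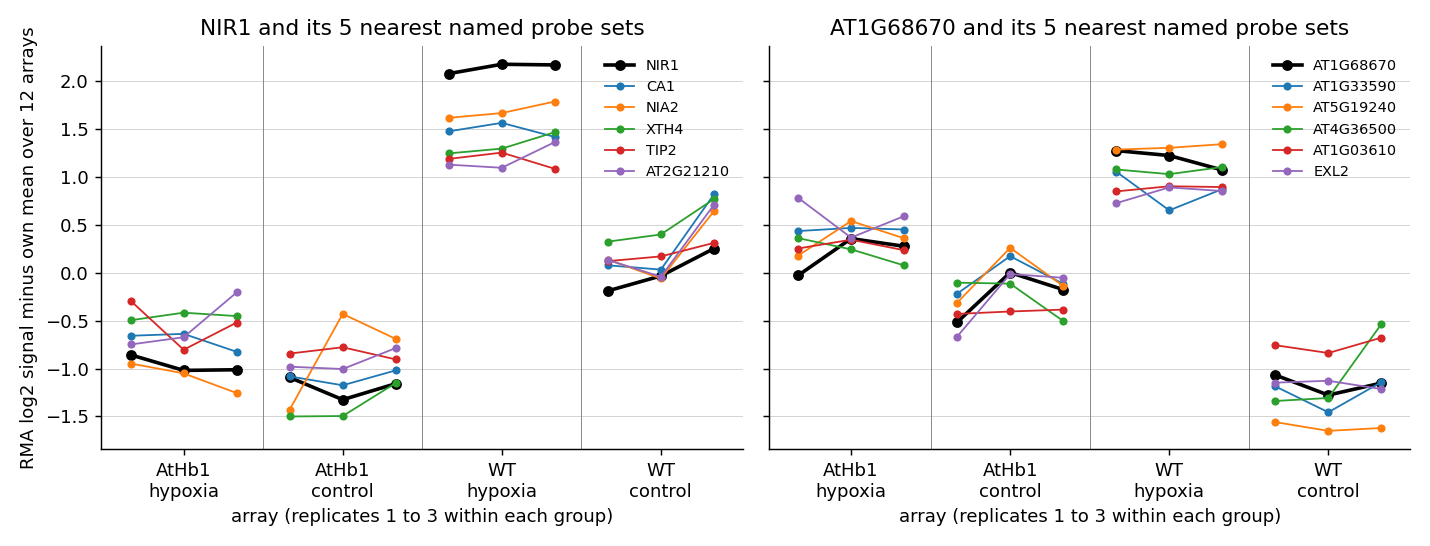
Log2 signal minus its mean over the 12 arrays, for *NIR1* (left, black) and AT1G68670 (right, black) with the 5 named probe sets nearest to each, by array within group. By group mean, WT hypoxia is highest for every gene shown, while WT control lies above both AtHb1 groups on the left and below them on the right. The neighbours were picked for this likeness.

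Other genes of nitrate use came from lists of transporters, signalling genes, cofactor synthesis and reductant supply. Of 113 further loci on all lists, 16 were named by the annotation, which does not depend on any result, and 9 only through the table of called genes. Among the 16, 1 was called: *HHO5* (AT4G37180), a GARP-family relative of AT1G68670, in the WT response, where 1.53% of all probe sets were called higher. At an adjusted p under 0.05 alone, 3 of 16 were higher and 1 lower in WT hypoxia (8.70% and 7.13% of all probe sets), and 2 were higher and 2 lower in AtHb1 hypoxia (12.6% and 9.51%). Against WT, 4 were higher and 2 lower in AtHb1 at control (17.5% and 15.7%), and 1 was higher and 4 lower under hypoxia (22.3% and 18.3%). For all list genes the 3' to 5' signal separated the genotypes as well, so its part in a genotype difference cannot be told apart. In the interaction none was higher and 2 were lower (6.98% and 5.30%). These counts lie near the background, and the median log2 fold changes of the 16 lay between -0.11 and 0.06.

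The 6 signalling genes named by the annotation held most of these changes. *HHO5* read 9.10, 9.07 and 9.26 in AtHb1 hypoxia, 8.38, 8.62 and 8.61 in AtHb1 control, 9.28, 9.20 and 9.14 in WT hypoxia, and 7.98, 7.93 and 7.73 in WT control. It rose with hypoxia in WT by 1.33 (adjusted p = 1.10e-07, limma) and in AtHb1 by 0.61 (adjusted p = 3.97e-04), with an interaction of -0.72 (adjusted p = 0.0027). Like AT1G68670 it was higher in AtHb1 at control, by 0.66 (adjusted p = 8.06e-05).

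*HHO3* (AT1G25550), known as *NIGT1.1* and a nitrate-induced repressor, rose in WT hypoxia by 0.57 (adjusted p = 8.18e-04), against 0.07 in AtHb1 (adjusted p = 0.638). Its interaction was -0.50 (adjusted p = 0.0286). *HHO6* (AT1G49560), a further GARP-family gene, rose in both genotypes, by 0.78 in AtHb1 and 0.42 in WT, and its interaction of 0.36 did not pass (adjusted p = 0.0536). *HHO1* (AT3G25790), another of the nitrate-induced repressors, passed in no comparison. Its group means of 4.85 to 4.96 were too weak to show a lack of response. *NRG2* (AT3G60320), a positive regulator of nitrate signalling, was lower in AtHb1 than in WT under hypoxia by 0.51 (log2 fold change -0.51, adjusted p = 4.90e-04) and at control (log2 fold change -0.44, adjusted p = 0.0016). *HYH* (AT3G17609), a relative of the light-signalling factor HY5, fell with hypoxia in both genotypes (log2 fold change -0.87 in AtHb1 and -0.43 in WT).

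Transport, cofactor and reductant genes moved less. *NRT2.5* (AT1G12940), a high-affinity nitrate transporter, read 5.59, 5.42 and 5.23 in AtHb1 hypoxia, 5.85, 6.34 and 5.86 in AtHb1 control, 5.89, 5.95 and 5.92 in WT hypoxia, and 6.06, 6.01 and 6.08 in WT control. It fell with hypoxia in AtHb1 (log2 fold change -0.60, adjusted p = 0.00305), and was lower in AtHb1 than in WT under hypoxia (log2 fold change -0.51, adjusted p = 0.00363), at a weak signal. *NRT1.4* (AT2G26690), a low-affinity nitrate transporter of the petiole, was higher in AtHb1 than in WT at control by 0.40 (adjusted p = 0.0261) and passed in no other comparison. Of 4 genes for molybdenum cofactor, tetrapyrrole and siroheme enzymes, *CNX6* (AT2G43760) was lower in AtHb1 under hypoxia (log2 fold change -0.21, adjusted p = 0.0314), and *SIRB* (AT1G50170), *HEMB1* (AT1G69740) and *SIR* (AT5G04590) passed nowhere. Among 4 genes of the oxidative pentose phosphate pathway, *PGD1* (AT1G64190), a 6-phosphogluconate dehydrogenase, was higher in AtHb1 by 0.37 under hypoxia (adjusted p = 7.76e-04) and by 0.27 at control (adjusted p = 0.00805), and *PGD2*, *PGD3* and *TRA1* passed nowhere.

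**Figure D5:**
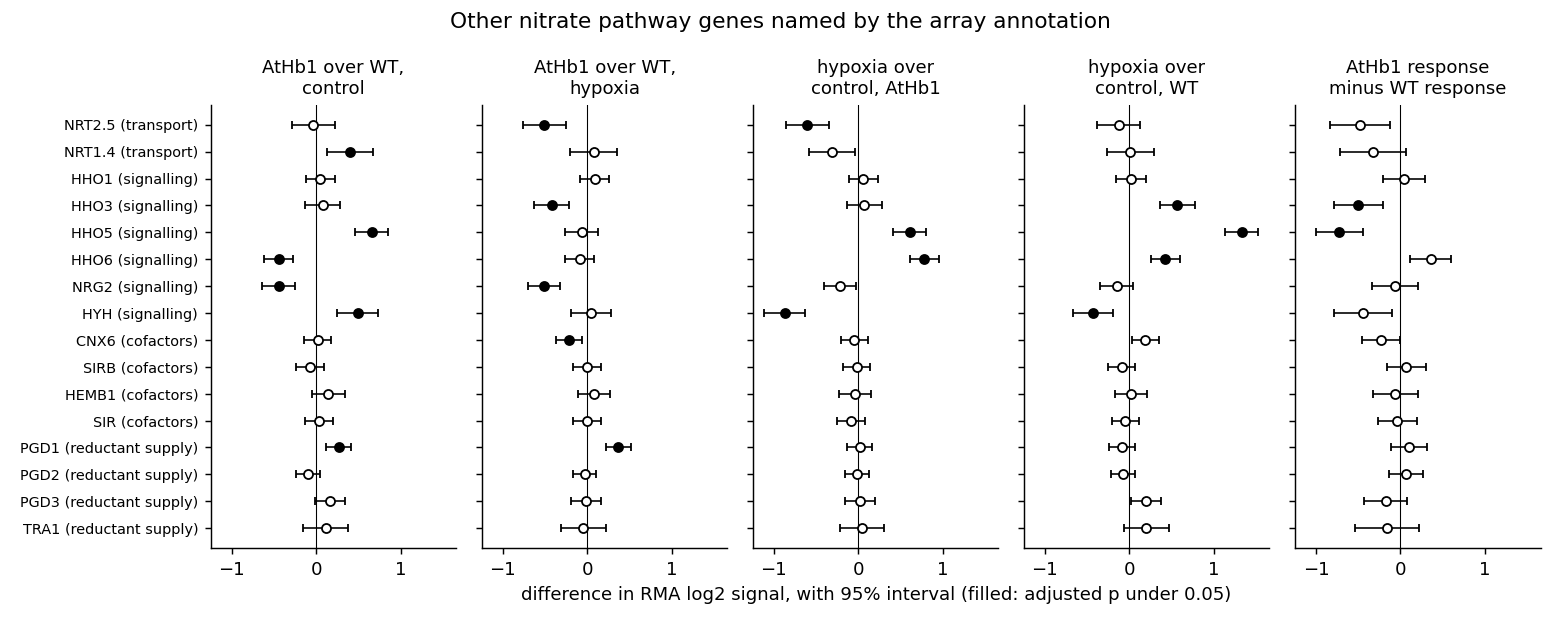
Differences in RMA log2 signal for the 16 other nitrate pathway genes named by the annotation of the array, with 95% intervals from limma; filled points had an adjusted p under 0.05. The GARP-family gene *HHO5* shows the largest change, 1.33 in the WT response, and the cofactor genes lie between -0.23 and 0.19 in all comparisons.

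Signalling genes named only through the table of called genes did not share 1 pattern. *ANR1* (AT2G14210), a MADS-box factor of the root response to nitrate, rose with hypoxia by 2.23 in AtHb1 (adjusted p = 1.01e-08, limma) and by 1.83 in WT (adjusted p = 5.46e-08). *BZIP1* (AT5G49450), a transcription factor that relays nitrogen and sugar signals, was higher in AtHb1 at control by 1.20 (adjusted p = 1.65e-04), but by 0.99 without AtHb1 control replicate 2 and by 0.23 with the 3' to 5' covariate (adjusted p = 0.905). *LBD40* (AT1G67100) and *LBD41* (AT3G02550), class II relatives of *LBD37*, rose with hypoxia in WT by 1.56 and 3.65. In AtHb1 *LBD41* rose by 2.98, while *LBD40* rose by 0.63, less than 2-fold. Under hypoxia, where *LBD37* was 2.87-fold lower in AtHb1, *LBD40* averaged 11.89 in AtHb1 and 12.03 in WT, and *LBD41* averaged 13.12 in AtHb1 and 13.19 in WT. At control *LBD40* was higher in AtHb1 by 0.79 (adjusted p = 5.84e-05) and *LBD41* by 0.61 (adjusted p = 2.66e-04). Like *LBD37*, both rose less in AtHb1, with interactions of -0.93 (adjusted p = 0.0012) and -0.67 (adjusted p = 0.00628), inside the 2-fold limit.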

How the data were processed

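The authors hybridized cRNA from siliques to ATH1 arrays, processed the scans with MAS5 and deposited log2 signals per probe set made with RMA (versions are not given in the sources used here). The deposited log2 values were used as they stand. Of 22810 probe sets, 64 controls were set apart and 22746 tested, of which 13436 were named by the annotation of the array, 493 only by the study's own table of genes it called, while 8314 stayed unnamed. Only gene names were taken from that table.

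limma 3.58.1 in R 4.3.3 fitted 1 mean per group over all 12 arrays. Contrasts compared the genotypes within each treatment and the treatments within each genotype, beside the interaction, with Benjamini-Hochberg adjustment over all tested probe sets of each. Probe sets were called at an adjusted p under 0.05 and an absolute log2 fold change above 1. Tables used Python 3.11.15 and pandas 2.3.3. The code was tested on simulated data. The small number of arrays limits the precision. An exact permutation test of 3 arrays against 3 could not give p below 0.1, so none was used.

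Members and gene lists were chosen with earlier results of these data known. Named genes were all members with a probe set, list genes called in a comparison (up to 4 per list), and the 5 nearest profiles of *NIR1* and AT1G68670. List genes that were not called were named after their values were seen. Tried in place of these settings were p without adjustment, calls with no or a 1.5-fold limit, fits of only the groups compared, robust eBayes with a trend, weights for arrays, omission of dim probe sets (mean log2 signal under 6 in every group), quantile normalization again, median centring, the replicate block, the 3' to 5' covariate, the mean over probe sets of a locus, and leaving out each array. A planned count of promoter motifs was not run, because no promoter sequence was at hand.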

Additional observations from a re-analysis of the deposited data

Results flagged for a closer look

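The hypoxia response differed between AtHb1 and WT by the interaction test, past the 2-fold limit, for all 5 nitrate genes and for 4 other genes. Of all 22746 probe sets 1.51% were called lower in the interaction. The 4 other genes were named only through the table of called genes, in which 25% were called lower and 8.02% higher. Of the 16 list genes named by the annotation, none was called. The response in AtHb1 minus that in WT was -1.93 for AT1G68670, -1.90 for *NIR1*, -1.69 for *NIA2*, -1.48 for *LBD37* and -1.11 for *UPM1*, on the log2 scale. It was -1.07 for *GLT1* (AT5G53460), the NADH-dependent glutamate synthase, which makes glutamate from glutamine and 2-oxoglutarate. The sign was positive for *GLN1;4* (AT5G16570), a cytosolic glutamine synthetase, the enzyme type that binds ammonium into glutamine, at 1.22, and for *GPT2* (AT1G61800), a plastid glucose-6-phosphate transporter, at 1.00. For the *AtHb1* probe set, which reads the transgene as well as the endogenous gene, the difference was -3.87. Single arrays decided 2 of these calls at the 2-fold limit: *GLT1* had -0.999 without AtHb1 hypoxia replicate 1 and -0.998 without WT hypoxia replicate 3, and *GPT2* had 0.85 without AtHb1 hypoxia replicate 1, 0.92 without WT hypoxia replicate 2, and 0.95 to 0.98 without AtHb1 control replicate 1 or 2 or WT control replicate 1 or 2. The *GPT2* call was also lost with all 12 arrays after quantile normalization again (0.95) and after median centring (0.98).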

How the results depend on the processing

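Over 25 log2 fold changes of the 5 nitrate genes and 24 alternatives, 574 of 595 values stayed on their side of the thresholds, 8 lost a call, 13 gained one, and none changed sign where it was called. Every call in the WT response and in the interaction was kept under every alternative run. Genes called higher in AtHb1 at control were 0, and 1 (AT1G68670) with no fold limit or a 1.5-fold limit. Genes called lower there were 2, and 0 with the 3' to 5' covariate, which also took the 4 called lower under hypoxia to 0. In the AtHb1 response 0 were called higher, and 2 with no fold limit. AT1G68670 under hypoxia crossed the limit with quantile normalization again (-1.07) or median centring (-1.07). Leaving out each array gave 0 to 1 called higher and 1 to 2 called lower at control.

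Replicate numbers are shared between groups. Only 2 of 18 same-number pairs had deviations correlated above 0.1 (-0.134 to 0.124), against 5 of 36 pairs of different number (-0.216 to 0.219). These values show no pairing by number, but cannot tell whether samples of the same number shared a treatment run. With the replicate block the counts were 2 and 4 lower in AtHb1 at control and under hypoxia, 5 higher in WT and 5 lower in the interaction, and no call of the nitrate genes changed. The mean over probe sets of a locus equals the value used here, since each gene had 1 probe set. Weak signals such as *NRT2.5* and *HHO1* are limited by background.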

Other observations

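Genes of ammonium assimilation and transport were measured only where the table of called genes named them, which was 4 of 24, so each had to change somewhere. *GLT1* read 9.97, 10.14 and 10.21 in AtHb1 hypoxia, 10.05, 9.94 and 10.09 in AtHb1 control, 10.27, 10.34 and 10.52 in WT hypoxia, and 9.28, 9.27 and 9.13 in WT control. The 3 WT control arrays were lowest, and the gene rose with hypoxia in WT by 1.15 on the log2 scale (standard error 0.09, adjusted p = 3.88e-07, limma). *GLN1;4* ran the other way: it read 9.64, 9.36 and 9.23 in AtHb1 hypoxia, 9.21, 9.38 and 9.22 in AtHb1 control, 8.914, 8.915 and 9.004 in WT hypoxia, and 10.07, 9.78 and 10.22 in WT control. It fell with hypoxia in WT (log2 fold change -1.08, adjusted p = 1.24e-05). That call was lost without WT control replicate 3 (log2 fold change -0.98).

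*ASP2* (AT5G19550), a cytosolic aspartate aminotransferase, rose with hypoxia by 1.45 in AtHb1 (adjusted p = 2.02e-08) and by 1.39 in WT (adjusted p = 2.23e-08). *AMT1;2* (AT1G64780), an ammonium transporter, fell with hypoxia in AtHb1 (log2 fold change -1.01, adjusted p = 2.34e-04), less than 2-fold without AtHb1 hypoxia replicate 2 (-0.93) or without AtHb1 control replicate 2 (-0.999) or 3 (-0.88) and not passed with the 3' to 5' covariate (-0.80, adjusted p = 0.0759), and had a log2 fold change of -0.73 in WT (adjusted p = 0.00204). *GPT2* averaged 10.69 ± 0.27 in AtHb1 hypoxia, 11.05 ± 0.11 in AtHb1 control, 10.89 ± 0.14 in WT hypoxia and 12.25 ± 0.17 in WT control (SD, n = 3 each), so that WT control stood alone. At control it was lower in AtHb1 (log2 fold change -1.19, adjusted p = 9.78e-06, not passed with the 3' to 5' covariate, adjusted p = 0.347), and it fell with hypoxia in WT (log2 fold change -1.36, adjusted p = 2.67e-06).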
